A study of Mus musculus with 8 samples.

Results

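Glycolysis and hypoxia response genes were followed across 8 arrays of mouse bone marrow derived macrophages. The list held 33 genes of glucose and lactate transport, the glycolytic steps, the fate of pyruvate, oxygen sensing and other hypoxia targets. Members were all probe sets that the platform annotation names for 1 listed gene and no other, array controls left out. This gave 60 of 22626 probe sets and 28 of the 33 genes, out of 12393 genes with such a probe set in the series. For the other 5 genes (Hk3, Gpi1, Pfkfb4, Gapdh and Eno1) no probe set named for that gene alone was analysed.

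Marrow cells were cultured in M-CSF (50 ng/ml), a macrophage growth factor, over 7 days. The 8 groups, with 1 array each, were Vdr-/- and wild-type cells given IFN-gamma and calcitriol together, IFN-gamma alone, calcitriol alone or neither. Vdr-/- cells came from mice with the Vdr tm1 Rge allele, a germline disruption of the vitamin D receptor gene. The gene was thus disrupted in the whole animal and not in macrophages only. IFN-gamma is the cytokine of classical macrophage activation, calcitriol is the active hormone form of vitamin D, and cells were treated for 24 to 48 hours. There was no replicate in any group, so the spread behind each test came from array pairs alike in the other factors, and the small number of arrays limits precision throughout.

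Glycolysis turns glucose into pyruvate, and activated macrophages are known to lean on it and to export the lactate made from pyruvate. The transcription factor HIF-1, made of the oxygen-regulated subunit Hif1a and the constant subunit Arnt, binds a short DNA element with the core ACGTG and is known to switch on many glycolytic genes. When oxygen is present, prolyl hydroxylases such as Egln1 and Egln3 mark Hif1a protein for destruction, so the RNA level of Hif1a is not a measure of HIF-1 activity.

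Promoter windows show where the list carries that element. RefSeq windows on the GRCm38.p6 mouse genome run from 250 bases before to 50 after an annotated start, 300 bases in all. They were found for 26 of the 28 genes with a probe set, all but Ndrg1 and Slc2a3. ACGTG, read on either strand, was in 22 of the 38 windows of these genes (57.9%), against 19.6% of all 32851 windows. The STAT element TTCNNNGAA, the kind of site that IFN-gamma signalling uses, was in 2 of the 38 windows (Aldoc and Pfkm), against 8.3% of all windows. A match in these letters is a description and not a shown binding site.

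The 5 windows below hold ACGTG and belong to members whose values are given in full. Vegfa and Hk2 also have such a window, which is not shown. Capitals mark ACGTG or its reverse complement, and a CACGTG run holds a match on each strand. The Pkm window is at chr9:59656977-59657276 on the plus strand and belongs to the second of 2 annotated starts. The Hif1a window is at chr12:73907617-73907916, the Ldha window at chr7:46845554-46845853 and the Slc2a1 window at chr4:119108495-119108794, all on the plus strand. The Pfkfb3 window is at chr2:11553880-11554179 on the minus strand.
Pkm: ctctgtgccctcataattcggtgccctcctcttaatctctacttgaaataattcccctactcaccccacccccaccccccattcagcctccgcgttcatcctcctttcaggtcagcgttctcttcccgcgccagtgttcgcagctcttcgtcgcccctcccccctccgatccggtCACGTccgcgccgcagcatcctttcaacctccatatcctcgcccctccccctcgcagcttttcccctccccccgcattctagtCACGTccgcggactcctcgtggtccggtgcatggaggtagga
Hif1a: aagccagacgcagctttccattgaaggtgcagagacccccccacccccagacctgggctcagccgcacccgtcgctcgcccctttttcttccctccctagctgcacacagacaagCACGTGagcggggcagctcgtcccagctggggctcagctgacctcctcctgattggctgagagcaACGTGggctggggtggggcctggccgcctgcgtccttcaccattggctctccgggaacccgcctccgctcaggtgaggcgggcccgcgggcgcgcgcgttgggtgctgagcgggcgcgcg
Ldha: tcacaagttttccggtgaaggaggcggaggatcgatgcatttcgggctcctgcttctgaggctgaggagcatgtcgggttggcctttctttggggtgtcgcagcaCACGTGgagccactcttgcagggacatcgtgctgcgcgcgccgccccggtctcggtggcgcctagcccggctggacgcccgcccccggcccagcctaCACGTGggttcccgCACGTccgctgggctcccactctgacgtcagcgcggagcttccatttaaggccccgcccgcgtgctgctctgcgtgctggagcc
Slc2a1: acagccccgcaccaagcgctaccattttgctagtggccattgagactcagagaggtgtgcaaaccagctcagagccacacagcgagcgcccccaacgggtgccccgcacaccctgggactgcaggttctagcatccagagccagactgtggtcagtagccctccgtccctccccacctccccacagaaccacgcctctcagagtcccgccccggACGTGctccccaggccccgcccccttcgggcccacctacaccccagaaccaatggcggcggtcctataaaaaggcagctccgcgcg
Pfkfb3: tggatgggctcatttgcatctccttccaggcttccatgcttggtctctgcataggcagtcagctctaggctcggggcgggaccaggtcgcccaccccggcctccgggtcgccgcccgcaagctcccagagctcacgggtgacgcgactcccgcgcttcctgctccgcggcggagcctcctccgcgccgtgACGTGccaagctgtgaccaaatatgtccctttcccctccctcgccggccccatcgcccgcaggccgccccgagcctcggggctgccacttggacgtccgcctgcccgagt
Ldha had the most matches of the 5, with 5 counted over both strands, and Hif1a had 3. The other window of Ldha and that of Pkm held no ACGTG. The windows of Pfkp and Tpi1 held neither motif. Ndrg1 and Slc2a3 are named only.

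Before the members, the arrays themselves differed in ways that touch the results. Values are linear signals that the authors had scaled to a common level, and signals under 15.5 (the pooled 25th percentile) were set to that floor before log2 was taken. Median signal per array was 53.5 to 68.3. The signal of the Gapdh control at the 3' end over that at the 5' end, which rises when RNA is truncated, was 7.67 on the wild-type calcitriol array, 4.82 on the Vdr-/- untreated array and 3.06 on the Vdr-/- IFN-gamma array. It was 0.853 to 1.65 on the other 5 arrays. The 2 Vdr probe sets read 90.3 and 63.2 on the array labelled Vdr-/- untreated, against 6.7 and 5.3 on the array labelled wild-type untreated, so these 2 arrays go against their genotype labels. In the other 3 genotype pairs Vdr read 2.5 to 45.6 in Vdr-/- cells, against 51.5 to 385.9 in wild type. Whether the disrupted gene still gives RNA that these probe sets read was not tested. All 12 macrophage markers read above the pooled median of 59.1 on every array. Marker sums of some other lineages moved with IFN-gamma. Those of dendritic cells (211.4 to 1453.4 with it and 474.5 to 1321.1 without) and of lymphocytes and NK cells (190.5 to 285.3 and 158.2 to 383.1) overlapped. Stromal markers (8 genes) summed to 204.8 to 394.9 with IFN-gamma and 508.7 to 993.5 without, neutrophil markers (10 genes) to 294.9 to 380.3 and 476.1 to 778.5, and erythroid, megakaryocyte and mast cell markers (8 genes) to 213.1 to 328.7 and 476.5 to 721.9. None of these markers was at the floor on all arrays. Only 1 neutrophil, 0 stromal and 1 erythroid, megakaryocyte or mast cell marker stayed above the pooled median on every array. The last was Pf4, the brightest gene of its list on every array (85.7 to 152 with IFN-gamma and 207.9 to 474.7 without). Of the genes in that list bright enough to test, 6 of 6 had a log2 change with IFN-gamma below 0. Hba-a1, too dim to test, read 57.6 in Vdr-/- and 52.7 in wild type with IFN-gamma alone, against 19.9 and 31.2 untreated. The part of these lineages and of RNA truncation in the results was not tested except where a value is given. In bulk RNA, fewer cells of a type and less RNA per cell cannot be told apart.

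A gene was represented by its brightest probe set. Probe sets whose highest signal reached 59.1 were tested, which left 52 of the 60 probe sets and 25 of the 28 genes. The 3 genes that stayed under it were Slc2a3, a glucose transporter (2.6 to 58.9 over its 4 probe sets), Eno2, an enolase (2.4 to 51.4), and Adm, the peptide hormone adrenomedullin (3 to 40.6). Tests used limma across all 18058 probe sets that passed, two-sided, with Benjamini-Hochberg adjustment over all of them and a threshold of 0.05.

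**Figure D1:**
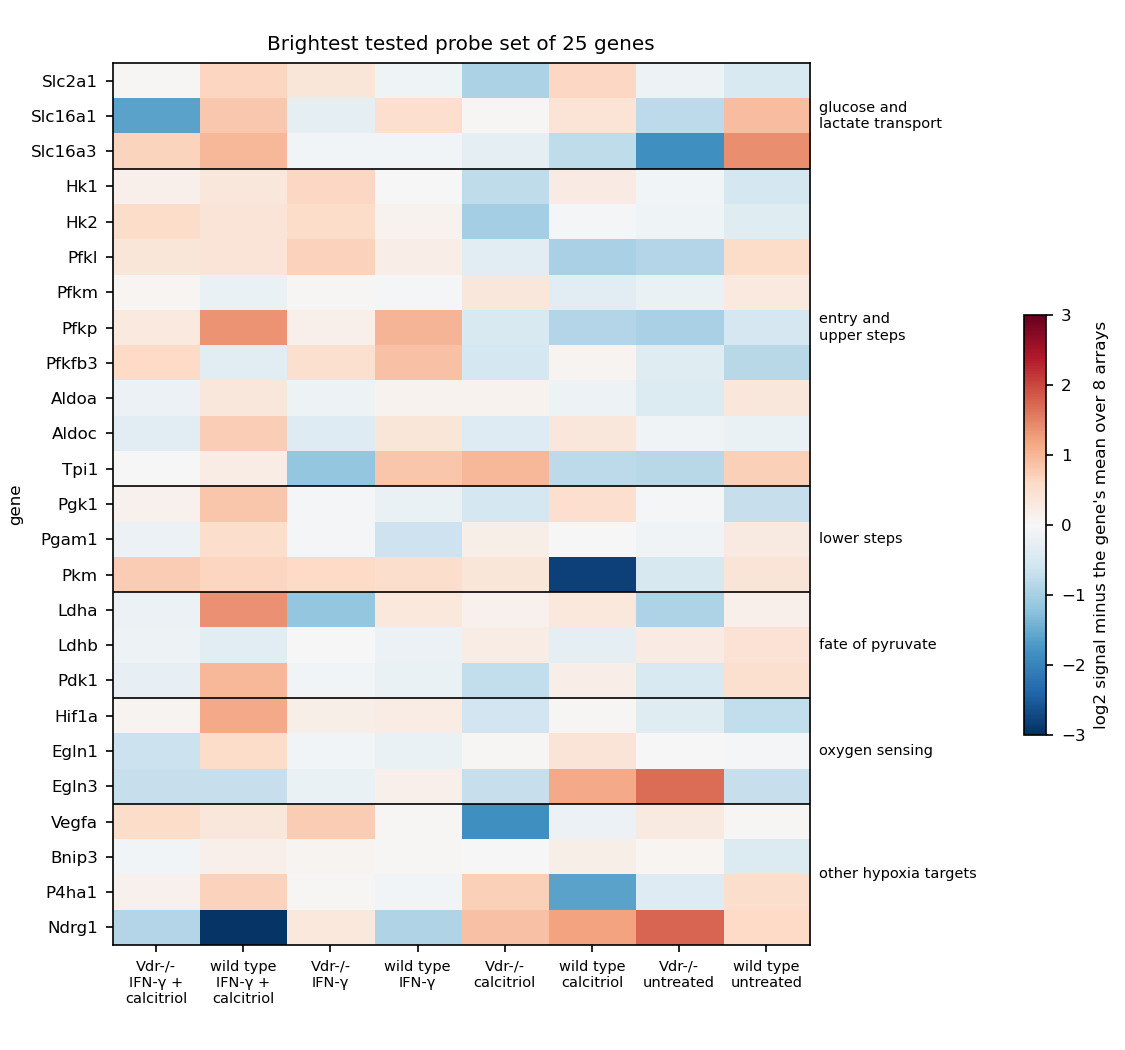
Log2 signal of 25 tested members, each by its brightest probe set, minus its mean over the 8 arrays. Rows are genes ordered by role and columns are arrays, and blue is lower and red higher. The wild-type array with both agents has the highest signal for 10 of the 25 genes, and Pkm is at its lowest on the wild-type calcitriol array.

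With IFN-gamma, the phosphofructokinase Pfkp and the pyruvate kinase Pkm rose and the hypoxia target Ndrg1 fell. These were 3 of the 25 genes, against 3.43% of all tested probe sets (2.15% higher and 1.27% lower). At an unadjusted p under 0.05 there were 8 of 25, against 12.4% of all tested probe sets. Log2 changes were above 0 for 17 of the 25 genes and below 0 for 8, with a median of 0.25 against -0.08 over all probe sets. Of the 25, 7 were higher and 2 were lower in every pair, against 7.55% and 10.4% of all tested probe sets. In 5 genes (Pfkp, Pkm, Hk2, Hif1a and Ndrg1) the 4 IFN-gamma arrays did not overlap the 4 others, against 6.8% of all tested probe sets.

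Among the 9 tested genes of entry and upper steps, 1 rose and 0 fell, against 2.15% and 1.27% of all tested probe sets. An unadjusted p under 0.05 was reached by 4, against 12.4%, and the median log2 change was 0.57, against -0.08. Pfkp, the platelet-type phosphofructokinase of the committed step, read 425.3 in Vdr-/- and 883.6 in wild-type cells with both agents and 383.4 and 699 with IFN-gamma alone, against 250.3 and 189.1 with calcitriol alone and 176.6 and 243.5 untreated. Every IFN-gamma array was above every other array. Its log2 change was 1.41 (SE 0.276, adjusted p = 0.00231 by limma), a 2.65-fold rise, and it was higher in 4 of 4 pairs. Its other probe set changed by 1.36 (adjusted p = 0.341). Both probe sets had their 2 lowest values on the 2 arrays with the highest Gapdh 3' to 5' ratios. On these, Vdr-/- untreated and wild-type calcitriol, the other probe set read 4.4 and 11.9, under the floor. Without these 2 arrays 0 members were called, and with the ratio as a covariate Pfkp was called.

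Hk2, the inducible hexokinase that traps glucose in the cell, read 975.2 in Vdr-/- and 866.4 in wild-type cells with both agents and 974.7 and 721.6 with IFN-gamma alone, against 329.5 and 636.5 with calcitriol alone and 605.7 and 514.9 untreated. The arrays did not overlap, but the change of 0.80 log2 (SE 0.238) had an adjusted p of 0.0746. Hk1, the constitutive hexokinase, changed by 0.57 log2 (adjusted p = 0.474). Pfkl, the liver-type phosphofructokinase, changed by 0.82 (adjusted p = 0.326).

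Pfkfb3 makes fructose 2,6-bisphosphate, an activator of phosphofructokinase, so it sets the pace of the pathway. Its brightest probe set read 228.5 in Vdr-/- and 118.8 in wild-type cells with both agents and 209.9 and 278.3 with IFN-gamma alone, against 104.6 and 157.9 with calcitriol alone and 116.1 and 84.8 untreated. These values overlapped, and the change was 0.82 log2 (SE 0.379, adjusted p = 0.366). The other probe set did not overlap and changed by 1.60 log2 (SE 0.472, adjusted p = 0.0684). It read 146.3, 98.7, 220.2 and 175.8 on the IFN-gamma arrays in the same order, against 56.9, 5.4, 77.7 and 96.7.

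Aldoa, Aldoc, Pfkm and Tpi1, enzymes of the sugar-splitting steps and the muscle-type phosphofructokinase, changed by -0.07 to 0.19 log2 by their brightest probe sets (adjusted p = 0.895 to 0.972). Of the 4 Aldoa probe sets, 1 differed from the others in being lower in 4 of 4 pairs with no overlap of the arrays. This probe set changed by -0.62 log2 (adjusted p = 0.158), against 0.05 for the brightest. The other Aldoc probe set changed by -0.57 (adjusted p = 0.8), and the other Tpi1 probe sets by 0.27 (adjusted p = 0.719) and 0.33 (adjusted p = 0.828).

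In the 3 tested genes of the lower steps, 1 rose and the median change was 0.37 log2. Pkm, the enzyme that makes pyruvate, read 4283.8 in Vdr-/- and 3976.4 in wild-type cells with both agents and 3863.1 and 3648.7 with IFN-gamma alone, against 3294.4 and 364.8 with calcitriol alone and 1825.1 and 3332.7 untreated. The 2 lowest values were on the 2 arrays with the highest Gapdh 3' to 5' ratios, and on the other 6 arrays Pkm ran from 3294.4 to 4283.8. The log2 change was 1.26 (SE 0.341, adjusted p = 0.0377), a 2.39-fold rise, and 4 of 4 pairs were higher, by 0.13 to 3.45. Without those 2 arrays the change was 0.25 (adjusted p = 0.715), and with the ratio as a covariate 0.40 (adjusted p = 0.695). Pgk1 and Pgam1, which follow Gapdh in the pathway, changed by 0.37 (adjusted p = 0.525) and -0.16 log2 (adjusted p = 0.853). The other Pgk1 probe sets disagreed in direction, at 0.20 (adjusted p = 0.823) and -0.47 (adjusted p = 0.481). The last of these was lower in 4 of 4 pairs.

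Each of the 4 IFN-gamma pairs was then left out in turn. The number of members called was 2 (Pfkp and Ndrg1) without the Vdr-/- pair with calcitriol and 0 without any of the other 3 pairs. Without the Vdr-/- pair that had no calcitriol, Pfkp changed by 1.5, Pkm by 1.32 and Ndrg1 by -2.47. Without the wild-type pair that had no calcitriol, they changed by 1.37, 1.64 and -2.44. Without the wild-type pair with calcitriol, they changed by 1.13, 0.53 and -1.56. The fit without the 2 arrays labelled untreated called 0 members too, with 1.49 for Pfkp, 1.91 for Pkm and -2.95 for Ndrg1. With the labels of these 2 arrays exchanged, Pfkp and Ndrg1 were called (adjusted p = 0.0138 and 0.0152) and Pkm was not (adjusted p = 0.0904).

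**Figure D2:**
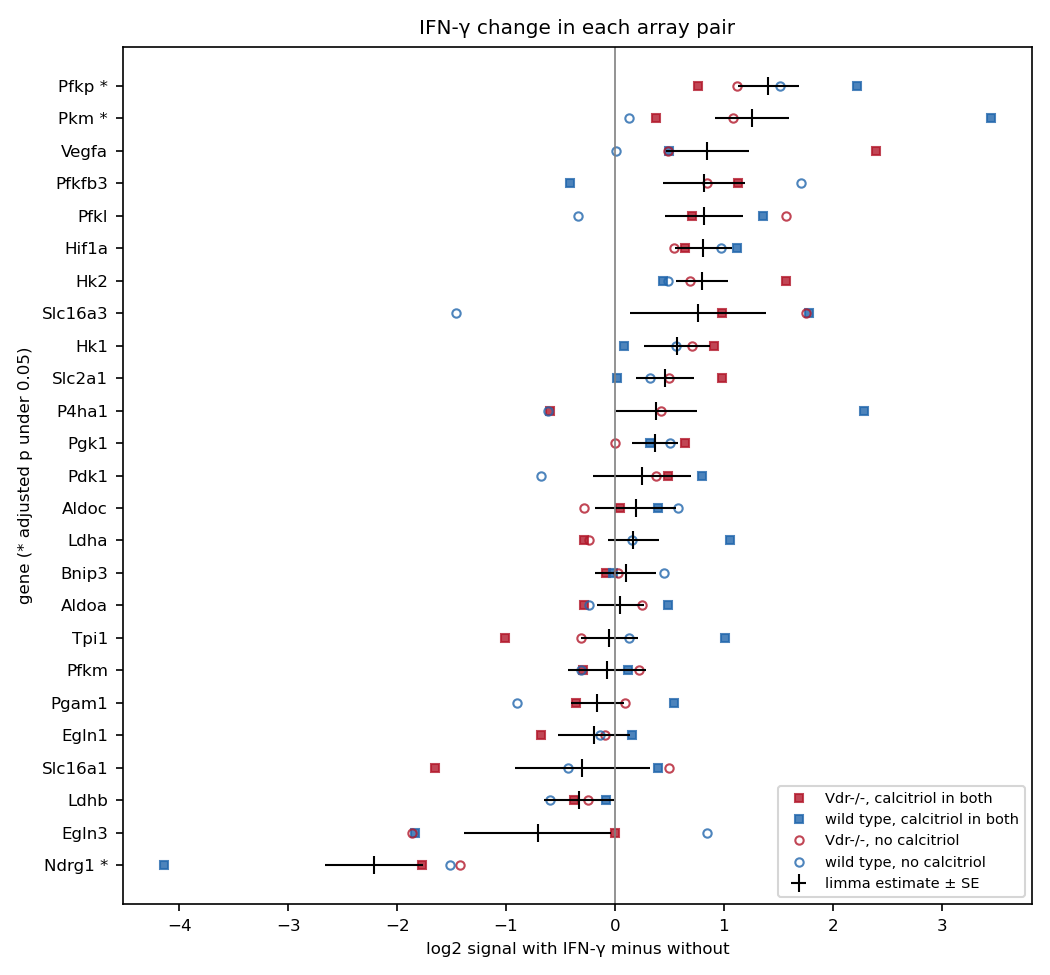
Log2 change with IFN-gamma in tested members, with points for the 4 array pairs and a bar for the limma estimate and its SE. Genes run down by the size of the estimate, and an asterisk marks an adjusted p under 0.05. Pfkp and Pkm are above 0 and Ndrg1 is below 0 in all 4 pairs.

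None of the 3 tested transporters changed past the threshold. Slc2a1, the main glucose importer of macrophages, read 331.7 in Vdr-/- and 507.5 in wild-type cells with both agents and 413.1 and 295.1 with IFN-gamma alone, against 168 and 500.5 with calcitriol alone and 291.2 and 237 untreated. It was higher in 4 of 4 pairs, by 0.02 to 0.98 log2, and the change was 0.46 (SE 0.267, adjusted p = 0.539). The other Slc2a1 probe sets disagreed in direction, at -0.09 (adjusted p = 0.941) and 0.64 (adjusted p = 0.467). Slc16a1 and Slc16a3, which carry lactate across the membrane, changed by -0.30 (adjusted p = 0.9) and 0.76 (adjusted p = 0.699).

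The enzymes that decide the fate of pyruvate did not pass the test either. Ldha, the lactate dehydrogenase subunit of the lactate-forming enzyme, changed by 0.17 log2 (adjusted p = 0.833), and Pdk1, the kinase that holds back pyruvate dehydrogenase, by 0.25 (adjusted p = 0.881). Ldhb, the other lactate dehydrogenase subunit, changed by -0.33 log2 (adjusted p = 0.756) and was lower in 4 of 4 pairs.

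Hif1a, the oxygen-regulated subunit of HIF-1, was higher in 4 of 4 pairs by its brightest probe set. That probe set read 336.3 in Vdr-/- and 705.9 in wild-type cells with both agents and 360.4 and 375.5 with IFN-gamma alone, against 215.7 and 325.8 with calcitriol alone and 248.7 and 192.3 untreated. The arrays did not overlap, and the change was 0.81 log2 (SE 0.262, adjusted p = 0.108). A further probe set rose by 1.2 log2 (SE 0.3, adjusted p = 0.0213). It read 436.3, 714, 422.3 and 267.7 on the IFN-gamma arrays in the same order, against 271.6, 144.2, 194.1 and 166.6, and the arrays overlapped. Without the 2 arrays of highest ratio it changed by 1.03 (adjusted p = 0.475), and without the 2 labelled untreated by 1.5 (adjusted p = 0.755). With their labels exchanged its adjusted p was 0.0597. Leaving out any 1 pair gave 0.83 to 1.37, with no adjusted p under 0.05. The third tested probe set changed by 0.65 (adjusted p = 0.623). The hydroxylases Egln1 and Egln3 changed by -0.19 (adjusted p = 0.878) and -0.71 (adjusted p = 0.744), and the other Egln1 probe set by 0.13 (adjusted p = 0.929).

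Of the 4 tested hypoxia targets, 1 fell and none rose. Ndrg1, a stress-responsive gene of the N-myc downstream regulated family, read 64.7 in Vdr-/- and 3.9 in wild-type cells with both agents and 148.6 and 63.2 with IFN-gamma alone, against 220.1 and 272.7 with calcitriol alone and 396.5 and 180.2 untreated. Every IFN-gamma array was below every other array. The log2 change was -2.21 (SE 0.45, adjusted p = 0.00338), 4.62-fold lower, and 4 of 4 pairs were lower. The wild-type array with both agents was under the floor, so the size depends on it: it was -2.6 with the floor at the pooled 10th percentile and -1.86 at the 40th. This probe set has an x suffix, which means that its probes may match other sequences. It moved with the marker sums of the stromal, neutrophil and erythroid lists given above, and their part in it was not tested. Without the 2 arrays of highest ratio the change was -1.85 (adjusted p = 0.36).

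The other 4 Ndrg1 probe sets had the same direction and did not pass the test. They changed by -1.69 (adjusted p = 0.0705), -1.44 (adjusted p = 0.326), -1.98 (adjusted p = 0.111) and -0.97 log2 (adjusted p = 0.648). In the third of these, all 4 IFN-gamma arrays were at the floor, so its 3.96-fold difference reads as at least 3.96-fold lower. It was tested only because its other arrays were bright enough.

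**Figure D3:**
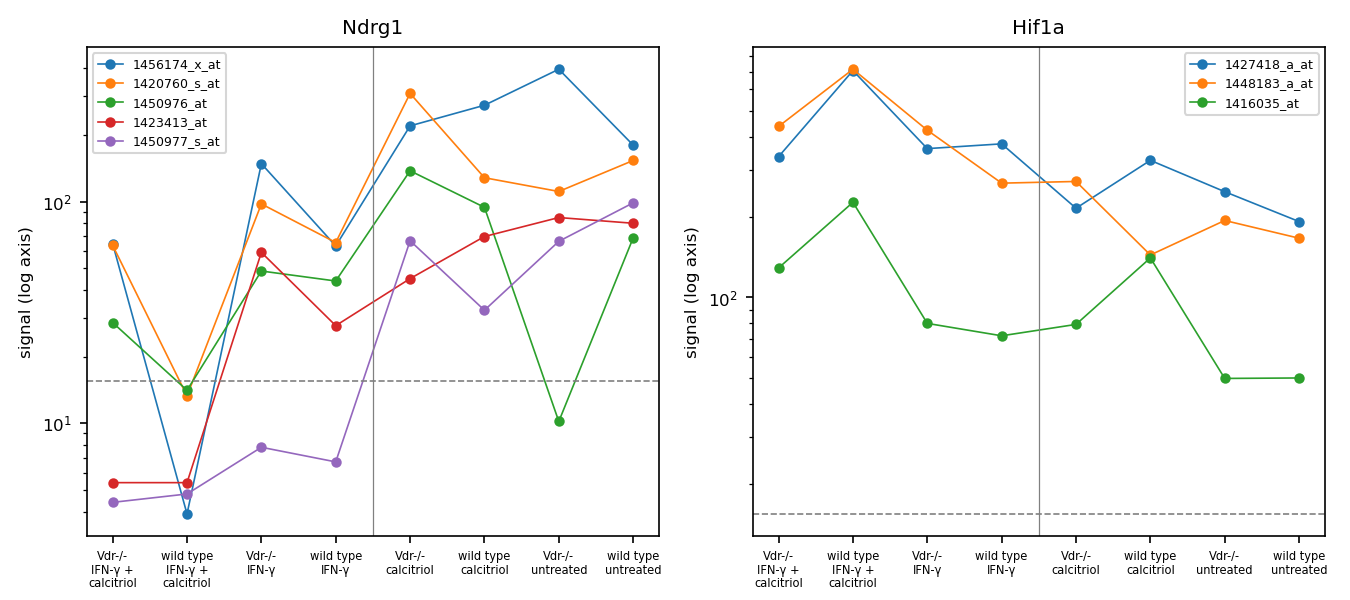
Signal on each array (log axis) for the 5 tested Ndrg1 probe sets and the 3 tested Hif1a probe sets, with IFN-gamma arrays first. The dashed line is the floor of 15.5, and lines join arrays of 1 probe set for reading only. All 5 Ndrg1 probe sets average lower and all 3 Hif1a probe sets higher on the IFN-gamma arrays.

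Vegfa, the growth factor of blood vessels, read 237.3 in Vdr-/- and 203 in wild-type cells with both agents and 274.8 and 165.2 with IFN-gamma alone, against 45 and 143.7 with calcitriol alone and 195.1 and 164.5 untreated. The change was 0.85 log2 (SE 0.383, adjusted p = 0.348). Its other probe set did not overlap between the groups and changed by 1.24 (adjusted p = 0.204). Bnip3, a mitophagy receptor, and P4ha1, a collagen prolyl hydroxylase, changed by 0.10 (adjusted p = 0.933) and 0.38 (adjusted p = 0.759). The other P4ha1 probe set changed by -0.06 (adjusted p = 0.978).

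Other genes of these pathways give the setting. Of 70 listed, 58 had a probe set and 56 were tested. With IFN-gamma 1 rose and 3 fell, against 2.15% and 1.27% of all tested probe sets. The median change was -0.11 log2, against -0.08 over all probe sets. Plod1, a lysyl hydroxylase of collagen, rose by 2.03 log2 (SE 0.539, adjusted p = 0.0324). It read 238.3, 250.2, 201.8 and 221.3 on the IFN-gamma arrays in the order used above, against 216.7, 17.2, 4.9 and 165.3, so the 2 lowest values were on the 2 arrays of highest ratio, and without them the change was 0.26 (adjusted p = 0.756). The fallers were Tfrc, the transferrin receptor (-2.70, adjusted p = 2.93e-05), Anxa2, a membrane-binding annexin (-1.81, adjusted p = 1.49e-05), and Cxcr4, a chemokine receptor (-1.56, adjusted p = 0.000816). Without the 2 arrays of highest ratio these were -2.44 (adjusted p = 0.245), -1.86 (adjusted p = 0.321) and -1.85 (adjusted p = 0.384), and without the 2 arrays labelled untreated none of the 4 genes was called, with adjusted p from 0.493 to 0.81. With those labels exchanged Plod1 was not called (adjusted p = 0.0698). Gpd2, the mitochondrial glycerol phosphate dehydrogenase, changed by 1.04 (adjusted p = 0.147).

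Genotype was set over 4 pairs alike in treatment. No member was called, as was the case for 0.0% of all tested probe sets, and at an unadjusted p under 0.05 there were 2 of 25 members, against 3.38% of all. Log2 changes ran from -1.32 to 1.03, with a median of -0.12 against -0.03 over all probe sets. As the arrays are labelled, 2 genes did not overlap between genotypes, Ldha and Slc16a1, against 2.36% of all probe sets. They were also the 2 members lower in every pair, against 4.66% of all probe sets, and 0 were higher in every pair, against 4.37%. After an exchange of the 2 untreated labels, each was lower in 3 of 4 pairs and both overlapped. The exchange, an alternative chosen after the data were seen, also called 0 members. Dendritic cell markers (5 genes) summed lower in Vdr-/- cells in all 4 pairs as labelled, and 0 of the 3 tested were called. They summed to 211.4 with both agents, 362.1 with IFN-gamma, 474.5 with calcitriol and 539 untreated, against 1453.4, 369.3, 1321.1 and 824.9 in wild-type cells. Most of the wild-type sums with calcitriol was Itgax (1279.2 with both agents and 1242.8 with calcitriol alone). The markers did not all move together. Flt3 was lower in Vdr-/- cells in all 4 pairs, but Itgax read 277.8 against 263.4 with IFN-gamma, and Zbtb46 read 45.4 against 30.3 untreated. The part of these markers in the genotype values was not tested.

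Ldha read 1707.6 in Vdr-/- cells with both agents, 852.7 with IFN-gamma, 2078.6 with calcitriol and 1009.6 untreated, against 4944.6, 2370.1, 2376.4 and 2125.8 in wild-type cells. The change was -1.07 log2 (SE 0.307, unadjusted p = 0.00217 and adjusted p = 0.999 by limma), and 4 of 4 pairs were lower. With the Gapdh ratio as a covariate it was called at -1.07 (adjusted p = 0.00066), in a fit with 2 residual degrees of freedom. Without the pair of untreated arrays, whose labels Vdr goes against, it was again -1.07 (adjusted p = 0.854), and with these labels exchanged -0.53 (adjusted p = 0.699).

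Slc16a1, a lactate and pyruvate transporter, read 13.6 in Vdr-/- cells with both agents, 38.9 with IFN-gamma, 48.7 with calcitriol and 27.6 untreated, against 82.5, 66.9, 62.6 and 90.2 in wild-type cells. It was tested only because its wild-type arrays were bright enough. The change was -1.32 log2 (SE 0.642, unadjusted p = 0.0529, adjusted p = 0.999), and 4 of 4 pairs were lower. Without the untreated pair it was -1.19 (adjusted p = 0.854), and with those labels exchanged -0.46 (adjusted p = 0.883). The other lactate transporter, Slc16a3, changed by -0.78 log2 (adjusted p = 0.999) with overlapping arrays. Ldhb changed by 0.17 (adjusted p = 0.999) by its brightest probe set and was higher in 3 of 4 pairs. Its other probe sets disagreed in direction, at -0.61, -0.62 and 0.27 (adjusted p = 0.999 for each). The first 2 of these were lower in 4 of 4 pairs, and the first did not overlap between genotypes. Ndrg1 changed by 1.03 log2 (unadjusted p = 0.0393, adjusted p = 0.999) by its brightest probe set and was higher in 3 of 4 pairs. Its other probe sets disagreed in direction, at 0.85, -0.14, 0.14 and 0.12 (adjusted p = 0.999 for each). Genotype and the mice or cultures of origin cannot be told apart.

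**Figure D4:**
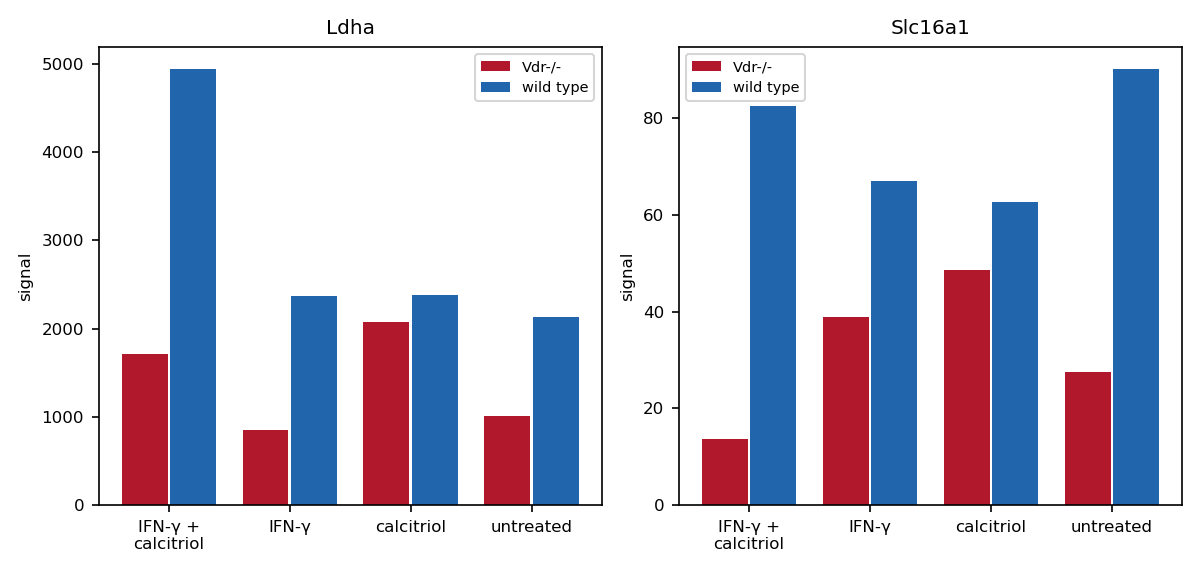
Signal of Ldha and Slc16a1 by treatment, with Vdr-/- left of wild type in each pair of bars and 1 array per bar. As labelled, the Vdr-/- bar is the lower one in all 4 treatments. Vdr signals go against the labels of the untreated pair, and with these exchanged it is lower in 3 of 4.

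Calcitriol was compared within each genotype over 2 pairs, with and without IFN-gamma, in a fit with 2 residual degrees of freedom. In wild-type cells 0 of 25 members were called, against 0.576% of all probe sets, and 5 had an unadjusted p under 0.05, against 10.3%. The median change was 0.05 log2, the same as over all probe sets. Pgk1, phosphoglycerate kinase, read 2510.4 with IFN-gamma and calcitriol and 2004.9 with calcitriol alone, against 1232.3 with IFN-gamma alone and 864.1 untreated. This was a change of 1.12 log2 (SE 0.315, adjusted p = 0.125), or 0.79 (adjusted p = 0.447) with the 2 untreated labels exchanged, and its other probe sets changed by 1.16 (adjusted p = 0.196) and 0.62 (adjusted p = 0.523). The other 4 with an unadjusted p under 0.05 were Slc2a1 at 0.93 (adjusted p = 0.384), Hif1a at 0.84 (adjusted p = 0.456), Pkm at -1.53 (adjusted p = 0.177) and Tpi1 at -1.05 (adjusted p = 0.196). For Slc2a1 the other probe sets changed by 0.65 and -0.05. The Pkm value rests on its 364.8 on the array of highest Gapdh ratio, against 3332.7 to 3976.4 on the other wild-type arrays. The dimmest tested Hif1a probe set read 227 and 140.6 with calcitriol, against 71.9 and 50 without, and changed by 1.58 (adjusted p = 0.387).

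In Vdr-/- cells calcitriol likewise called 0 of 25 members, against 0.194% of all probe sets, and 3 had an unadjusted p under 0.05, against 6.35%. The median change was -0.12 log2, against -0.08 over all probe sets. Tpi1, triose phosphate isomerase, read 956.2 with both agents and 1925.2 with calcitriol alone, against 432.8 with IFN-gamma alone and 537.7 untreated. This was a change of 1.49 log2 (SE 0.333, adjusted p = 0.0664). Ldha changed by 1.02 (SE 0.323, adjusted p = 0.347). With the Gapdh ratio as a covariate these were 0.57 (adjusted p = 0.908) and 0.31 (adjusted p = 0.962), and with the labels exchanged 0.72 and 0.48 (adjusted p = 1.0 for both). Slc2a1 changed by -0.56 (adjusted p = 0.904), and its other probe sets by -1.04 and 0.46. Vegfa changed by -1.16 (adjusted p = 0.764) and Ndrg1 by -1.02 (adjusted p = 0.888). Their other probe sets gave 0.16 for Vegfa and 0.42, 1.19, -1.42 and 0.0 for Ndrg1. Egln3 changed by -1.44 (adjusted p = 0.904) and Slc16a3 by 1.15 (adjusted p = 0.927). Egln3 read 2.3 with both agents and 2.5 with calcitriol, both under the floor, against 22 with IFN-gamma and 80.1 untreated. It was tested only because of that untreated array. Slc16a3 read 88.7 and 45, against 52 and 12.7, the last under the floor. Both Vdr-/- arrays without calcitriol had a raised Gapdh ratio (4.82 and 3.06) and both with it did not (0.853 and 1.07).

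The effect of calcitriol in wild type minus that in Vdr-/- was called for 1 of 25 members, against 1.5% of all probe sets (1.33% lower). It was Tpi1, at -2.55 log2 (SE 0.472, adjusted p = 0.00466). In wild-type cells Tpi1 read 1122 with both agents and 558.9 with calcitriol alone, against 1722.3 with IFN-gamma alone and 1570.8 untreated, a change of -1.05 (adjusted p = 0.196). Its low arrays were the wild-type calcitriol array and both Vdr-/- arrays without calcitriol, the 3 arrays of highest Gapdh ratio. With the ratio as a covariate the difference was -0.82 (adjusted p = 0.928), and without the 2 arrays of highest ratio -1.76 (adjusted p = 0.703). Without the 2 arrays labelled untreated it was -2.77 (adjusted p = 0.83), with their labels exchanged -1.0 (adjusted p = 0.771), and the other Tpi1 probe sets gave -0.88 (adjusted p = 0.466) and -1.26 (adjusted p = 0.623). Some macrophage markers moved with Tpi1 in this contrast and some did not. Of the 12, 8 were below 0 and 4 above 0 (up to 0.71 log2), and 6 were called lower and 0 higher. The median was -1.73 log2, against 0.16 over all probe sets, and the part of these markers in the Tpi1 difference was not tested.

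Other differences between the genotypes did not pass the test. They were -2.03 for Pkm (adjusted p = 0.161), 1.49 for Slc2a1 (adjusted p = 0.231), 1.29 for Pgk1 (adjusted p = 0.197) and 0.99 for Hif1a (adjusted p = 0.488). Other probe sets gave 1.69 and -0.51 for Slc2a1 and -0.15 and 1.51 for Pgk1. The dimmest Aldoa probe set gave -2.32 (adjusted p = 0.0549). It read 640.7 in Vdr-/- and 585.5 in wild-type cells with both agents, 617.4 and 783.9 with IFN-gamma, 994.3 and 203.4 with calcitriol and 282.2 and 1035.9 untreated. Its 2 lowest values were again on the 2 arrays of highest ratio.

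**Figure D5:**
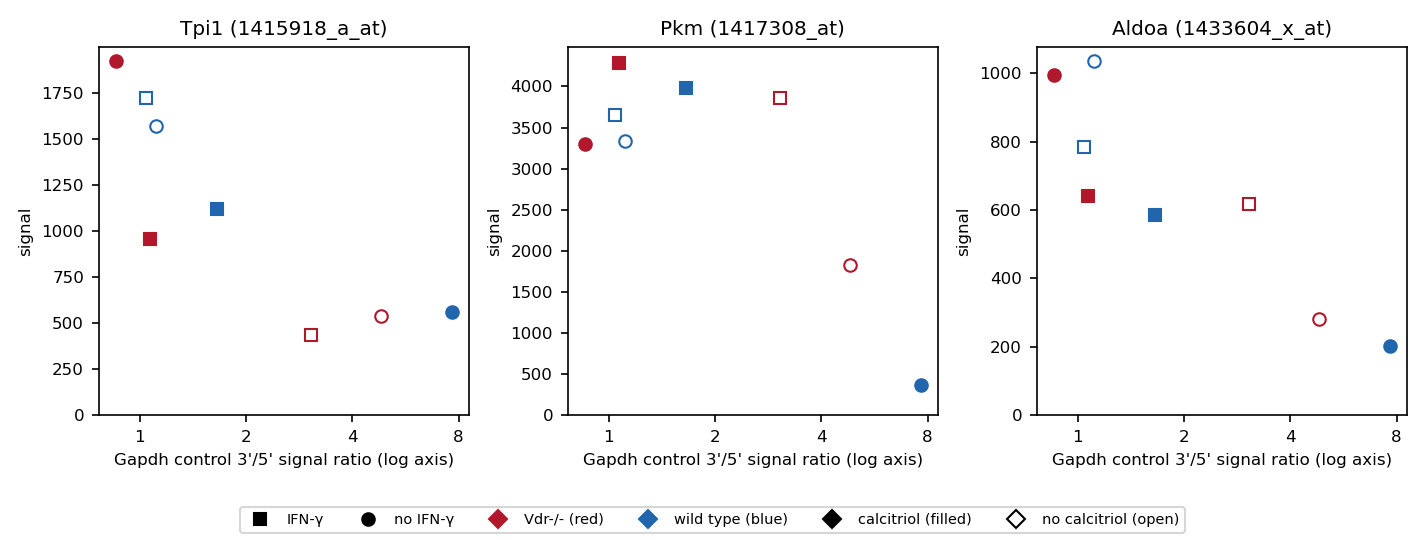
Signal of Tpi1, Pkm and the dimmest Aldoa probe set on each array against the Gapdh control 3' to 5' signal ratio (both axes as labelled, 8 arrays). The wild-type calcitriol array (ratio 7.67) and the Vdr-/- untreated array (4.82) hold the 2 lowest Pkm and Aldoa signals.

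Among the other pathway genes, calcitriol called only Bhlhe40, a hypoxia-induced transcriptional repressor. It rose by 2.98 log2 in wild type (adjusted p = 0.0385), and the difference from Vdr-/- was 4.42 (SE 0.949, adjusted p = 0.0138). Bhlhe40 read 276 and 563.2 with calcitriol in wild-type cells, with and without IFN-gamma, against 14 and 161.9 without calcitriol. In Vdr-/- cells it read 75.6 and 37.6 with calcitriol, against 97.8 and 214.7 without. Neither call held without the 2 arrays of highest ratio (3.06, adjusted p = 0.673, and 4.53, adjusted p = 0.729), without the 2 labelled untreated (4.66, adjusted p = 0.844, and 5.54, adjusted p = 0.83) or with their labels exchanged (2.77, adjusted p = 0.172, and 4.01, adjusted p = 0.283). No other pathway gene was called for genotype, for calcitriol in Vdr-/- cells or for the difference in IFN-gamma effect.

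The IFN-gamma effect in Vdr-/- minus that in wild type was called for 0 of 25 members, as for 0.0% of all probe sets, and 1 had an unadjusted p under 0.05, against 3.52% of all. The differences ran from -1.23 (Tpi1) to 1.23 (Ndrg1), each with an adjusted p of 0.996. After an exchange of the 2 untreated labels, 2 members were called, Tpi1 at -2.78 (SE 0.418, adjusted p = 0.00503) and Ldha at -1.94 (SE 0.395, adjusted p = 0.033). As labelled, Ldha was at -0.87 (adjusted p = 0.996). Of the 25 members, 10 were at their highest on the wild-type array with both agents, against 12.3% of all tested probe sets.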

How the data were processed

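Total RNA of 8 mouse macrophage cultures was measured on single-colour arrays. The deposited values were linear intensity signals per probe set, which the authors had scaled to the same 2% trimmed mean (150.07 to 150.08), as the values show. Array software: not given in the sources used here. Of 22690 probe sets, 64 controls were set aside. The platform annotation gave 1 gene for 20380 probe sets, several for 691 and none for 1555. A floor at the pooled 25th percentile (15.5), log2 and a filter at the pooled 50th percentile (59.1) left 18058 probe sets, with 15.5% of values at the floor. limma 3.58.1 in R 4.3.3 with an intensity trend fitted IFN-gamma and genotype over 4 pairs as blocks (3 residual degrees of freedom), and calcitriol and the differences nested in genotype (2 residual degrees of freedom). The fits were tested on simulated data. Python 3.11.15 with matplotlib 3.10.9 drew the figures. Values on every array were given for members called in any contrast and for Hif1a, Vegfa, Slc2a1, Ldha, Hk2, Pfkfb3 and Pkm. Other members whose brightest probe set changed by at least 1 log2, with the same sign in every pair, have values on the arrays of that contrast. Members, lists, rules and alternatives were chosen with earlier results of these data known, and the exchange of the 2 untreated labels was added after the data were seen.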

Additional observations from a re-analysis of the deposited data

Results flagged for a closer look

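The change of Tpi1 with calcitriol differed between wild-type and Vdr-/- cells by -2.55 log2 in a test of the difference itself (adjusted p = 0.00466 by limma), with -1.05 in wild type and 1.49 in Vdr-/-. The other Tpi1 probe sets gave -0.88 and -1.26, and the difference was -0.82 with the Gapdh ratio as a covariate and -1.0 with the 2 untreated labels exchanged.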

How the results depend on the processing

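The IFN-gamma effect called 3 members. It called 2 under quantile normalization (Pfkp, Ndrg1), with the 2 untreated labels exchanged (an alternative chosen after seeing the data), the filter at the 75th percentile, the floor at the 10th percentile, additive terms in place of blocks, and the Gapdh ratio as a covariate (Pfkp, Hk2), and 3 with the floor at the 40th percentile. It called 0 with no filter, without the intensity trend, without the 2 arrays of highest Gapdh ratio, without the 2 arrays labelled untreated and with probe sets of a gene averaged. Over all probe sets these 5 fits called 80, 70, 53, 24 and 376, against 619. Leaving out a pair gave 0 to 2 members and 99 to 420 probe sets. Pfkp stayed at 1.08 to 1.62 log2 and was called in 8 of 16 alternatives, Ndrg1 at -2.95 to -1.53 in 7, and Pkm at 0.25 to 1.91 in 1.

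For genotype, 1 member (Ldha) was called in place of 0 with the ratio as a covariate, and leaving out a pair gave 0. For calcitriol in Vdr-/-, 1 was called in place of 0 with the floor at the 40th percentile (Tpi1, 1.49, adjusted p = 0.039) and 1 with the covariate (Pkm), which put Tpi1 at 0.57. The difference in calcitriol effect called 1 under quantile normalization and both other floors, and 0 in place of 1 with no filter, the filter at the 75th percentile, no trend, either removal of 2 arrays, the exchanged labels, the covariate and the mean over probe sets. The difference in IFN-gamma effect called 2 in place of 0 (Tpi1 and Ldha) with the exchanged labels and 0 in the other alternatives, and calcitriol in wild type called 0 members in every alternative run. Over all probe sets the alternatives called 0 to 86 for genotype (0 as reported), 0 to 135 for calcitriol in wild type (104), 0 to 88 in Vdr-/- (35), 0 to 334 for their difference (271) and 0 to 109 for the difference in IFN-gamma effect (0). Values reversed for Ldha with IFN-gamma (-0.05 without the 2 arrays of highest ratio, -0.15 with the covariate, and -0.12 to 0.32 over the pairs left out in turn, with -0.12 without the wild-type pair with calcitriol) and, for calcitriol in Vdr-/- with the covariate, for Slc16a3 (-1.63), Egln3 (1.31) and Ndrg1 (0.88), and for Slc16a3 with the labels exchanged (-0.46). The cause was not tested. With 1 array per group the fits had 1 to 4 residual degrees of freedom, and signals near the floor carry no order. Pairs alike in the other factors entered as blocks, and the labels carry no replicate numbers to pair by.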
